A study of Mus musculus with 6 samples.

Results

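The translation initiation factor genes of mouse CD8+ T cells were compared between Dot1l knockout and wild type cells. Members were all genes whose symbol starts with Eif and a digit from 1 to 6, without the eIF2 alpha kinases (Eif2ak) and pseudogenes, read by a probe set annotated to exactly 1 gene. This gave 46 of the 22180 genes tested, each read by its brightest probe set. RNA was measured on 6 Affymetrix whole-transcript arrays, 3 of Dot1l knockout and 3 of wild type CD8+ T cells, all from C57BL/6 mice. Knockout animals came from crossing Dot1l flox/flox mice with CD4-Cre mice, in which the Cd4 promoter drives the Cre recombinase that removes the floxed segment in developing T cells, so the gene is lost in the CD4 and the CD8 lineage alike. The labels call the other group wild type and do not say whether it carried floxed alleles or Cre, nor do they give the animals' age or say that each array is a separate animal or culture. The p-values therefore measure the spread between these 6 samples alone, and that spread may be technical. CD8+ T cells were isolated from peripheral lymph nodes and spleen with an EasySep kit, and no treatment was given to either group.

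Translation of most messenger RNAs starts when a small ribosomal subunit that carries initiator tRNA is recruited to the capped end of the message and scans for a start codon. The factor eIF2 brings the tRNA as a complex with GTP and is recharged by the exchange factor eIF2B, eIF3 holds the small subunit, the eIF4 group binds the cap and unwinds the message, and eIF5, eIF5B and eIF6 act on codon recognition and subunit joining. Kinases of the integrated stress response phosphorylate eIF2, and mTOR signalling acts on the eIF4E-binding proteins. In T cells the capacity to start translation is known to grow on activation.

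None of the 46 initiation factor genes passed the test for a difference between Dot1l knockout and wild type arrays. The test was limma with Benjamini-Hochberg adjustment over all 22180 genes, with a threshold of 0.05 on the adjusted p, and 0 of 46 members were higher and 0 were lower. Over all genes 5.5% passed, 4.3% as higher and 1.2% as lower in knockout arrays. The smallest adjusted p of a member was 0.0635, for Eif1ax. At an unadjusted p under 0.05 there were 8 members (17.4%), against 18% of all genes, with 4 members higher (11.2% of all genes) and 4 lower (6.83% of all genes) in knockout arrays. Of the 11786 genes above a guide to background (defined with the markers), which included 44 members, 9.95% passed, 27.7% had an unadjusted p under 0.05 (8 of 44 members, 18.2%) and 33.8% had groups that did not overlap (12 of 44 members, 27.3%). In limma with trend and robust fitting 3 members passed, with Eif1ax higher (adjusted p = 0.0144) and Eif2a (adjusted p = 0.0199) and Eif2b2 (adjusted p = 0.0267) lower in knockout arrays. The median log2 difference of the members, knockout minus wild type, was -0.03, against -0.01 over all genes, and the median size of the difference was 0.12, against 0.13 over all genes and 0.17 over the genes above the guide. Of the 46 differences, 38 were smaller than 0.25 on the log2 scale.

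A p that misses the threshold does not show equal levels, so the intervals bound what could have been missed. The 95% interval of the difference lay within 1.5-fold in either direction for 36 of 46 members (78.3%), against 79.3% of all genes. It lay within 2-fold for 45 of 46 members, the exception being Eif3j1, and for 96.1% of all genes. The smallest difference that passed among all genes had a size of 0.38, and the median standard error (SE) of the members was 0.12. The 3 knockout and the 3 wild type values did not overlap for 12 members (26.1%), against 23.5% of all genes. Of these, 6 were higher in knockout arrays (13.7% of all genes did so) and 6 were lower (9.78% of all genes).

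**Figure D1:**
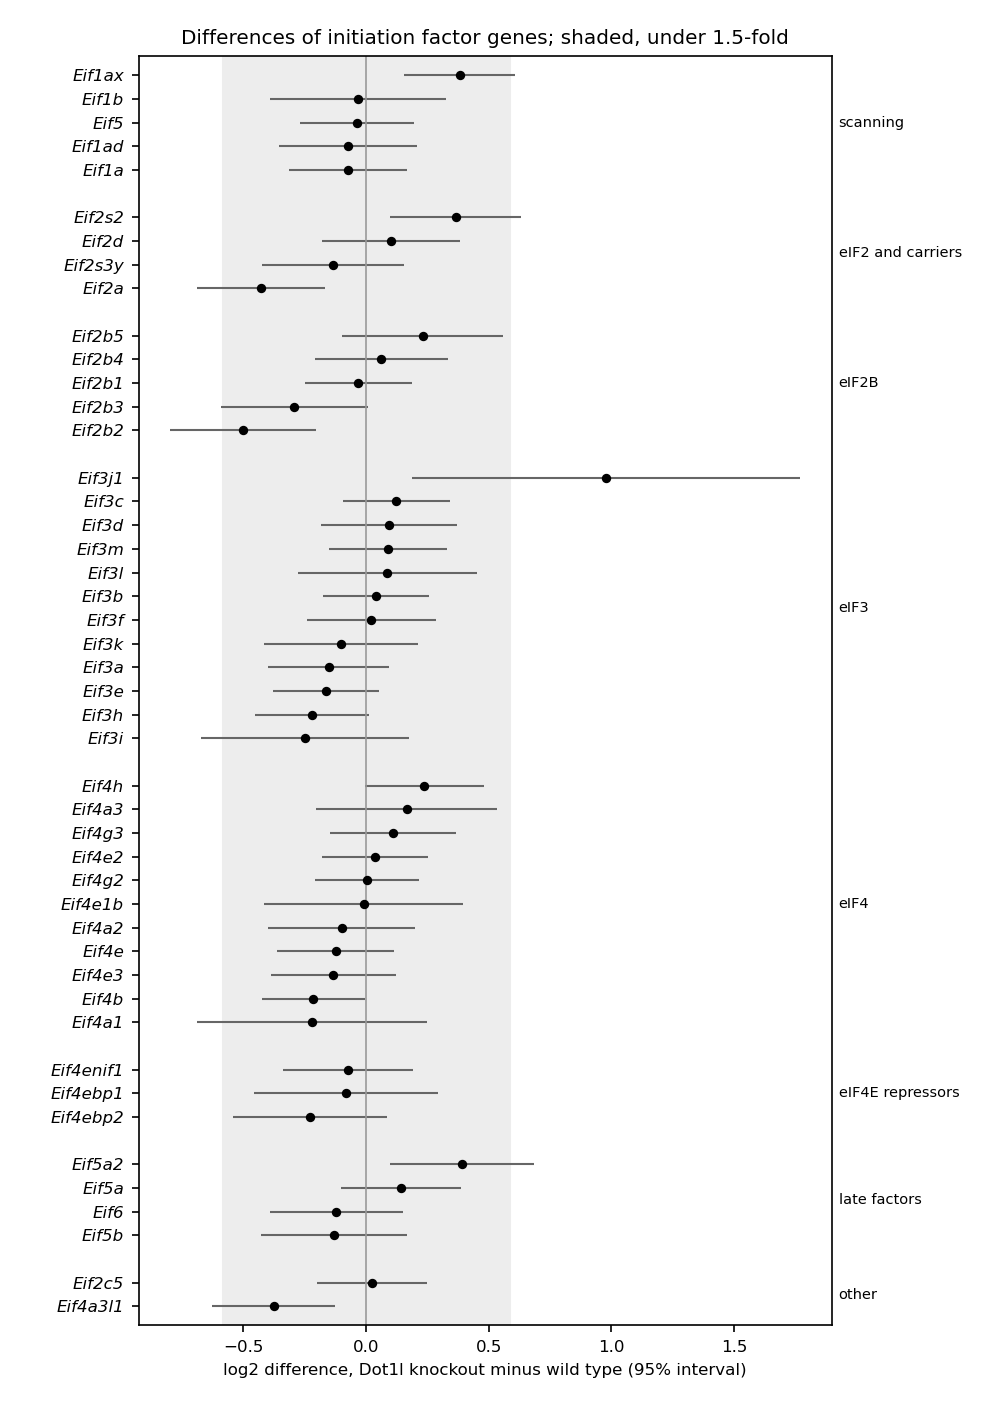
Log2 difference, Dot1l knockout minus wild type, of the 46 initiation factor genes (points) with 95% intervals from limma (bars), grouped by role, with 3 arrays per group. The shaded band marks differences under 1.5-fold, and 36 of the 46 intervals lie inside it.

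**Figure D2:**
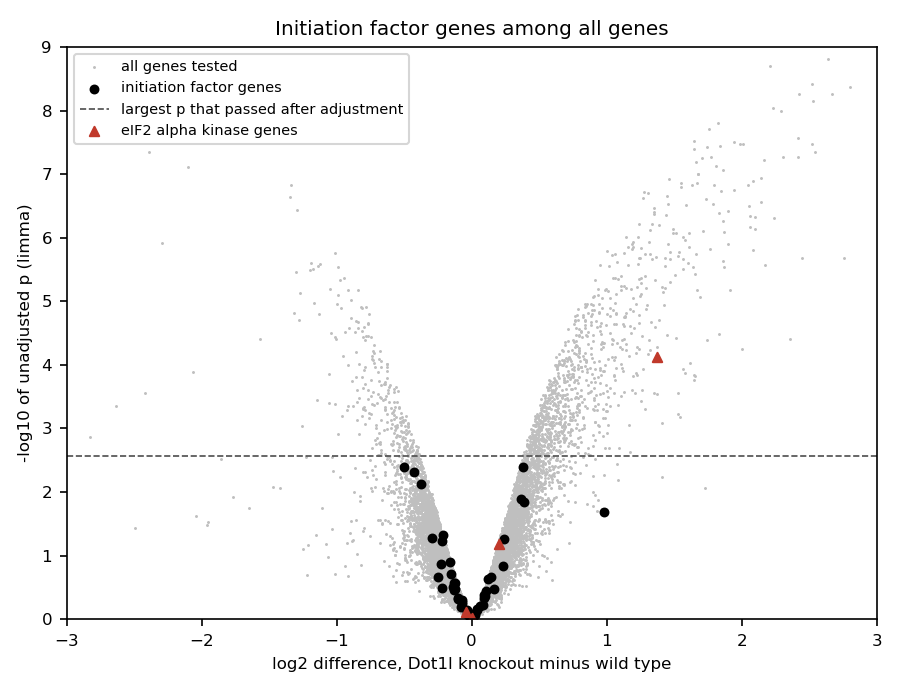
Each gene's log2 difference, Dot1l knockout minus wild type (x axis), against the -log10 of its unadjusted limma p (y axis), with initiation factor genes in black, the 4 eIF2 alpha kinase genes as red triangles and all genes in grey. The dashed line marks the largest p that passed after adjustment, which no black point crosses; 4 genes lie outside the plotted range.

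The arrays and cells behind these values were as follows. Dot1l itself read 7.31, 7.26 and 7.33 on knockout arrays, against 7.46, 6.96 and 7.18 on wild type arrays, a log2 difference of 0.10 (SE 0.13, adjusted p = 0.765). The labels do not name the exon that Cre removes, a probe outside it would check nothing, and directions refer to the arrays as labelled. The T cell markers Cd3e (11.74 ± 0.03 in knockout and 11.83 ± 0.05 in wild type arrays; SD, n = 3 each), Cd8a (10.95 ± 0.07 in knockout and 11.12 ± 0.12 in wild type arrays) and Cd8b1 (11.21 ± 0.07 in knockout and 11.26 ± 0.09 in wild type arrays) were far above 3.83, the 95th percentile of 1394 olfactory and vomeronasal receptor genes, which served as a guide to background. Of 8 T cell and CD8 markers, all above that guide, Cd5, a receptor that dampens T cell receptor signalling, fell (8.65 ± 0.06 in knockout and 9.66 ± 0.02 in wild type arrays, adjusted p = 0.000376), and 7 did not pass. Of those 7, Thy1 (0.31) and Cd2 (0.24) were higher and Cd3e (-0.09) was lower without overlap. Of 5 CD4 T cell markers, Il2ra rose (0.69, adjusted p = 0.0194) and Cd40lg fell (-0.88, adjusted p = 0.00801). Cd4 averaged 3.86 ± 0.08 in knockout and 3.79 ± 0.22 in wild type arrays, at the guide, and Foxp3 (4.83 in knockout and 5.09 in wild type arrays) and Zbtb7b (4.75 in knockout and 4.81 in wild type arrays) lay above it. Xist, which is transcribed from an inactive X chromosome, read 6.91 on wild type replicate 3 and 2.65 to 3.28 on the other 5 arrays, so that array stood apart, while the labels name no sex. Without it 0 of 46 members passed, with 0.0601 as the smallest adjusted p. A block of 5333 unnamed probe sets had array means of 4.19 to 4.39 in knockout and 3.65 to 3.91 in wild type arrays, and with that mean as a covariate 2 genes passed among all genes and 0 among the members. The block mean correlated with the group at r = 0.93, so a call lost in that fit says little about a gene.

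In the scanning group, which finds the start codon, Eif1ax had the smallest p of all members. Eif1ax, the X-linked gene of eIF1A, which keeps the scanning ribosome open, read 8.88, 8.72 and 8.88 on knockout arrays, against 8.38, 8.47 and 8.48 on wild type arrays. All 3 knockout values lay above all 3 wild type values, by 0.38 in the mean (SE 0.10, 95% interval 0.15 to 0.61, adjusted p = 0.0635). Its autosomal relative Eif1a read 8.04, 8.05 and 8.04 on knockout arrays, against 7.96, 8.16 and 8.24 on wild type arrays. Those groups overlapped (-0.07, SE 0.11, adjusted p = 0.784), and because the messages of these relatives are similar, some probes may read both. Eif1ad, which codes for a protein with an eIF1A domain, read 7.61, 7.62 and 7.39 in knockout and 7.48, 7.82 and 7.53 in wild type arrays (-0.07, adjusted p = 0.823). Eif1b, a relative of the start codon factor eIF1, differed by -0.03, and Eif5, the GTPase-activating factor of eIF2, by -0.04. Of the 5 genes measured in this group 0 passed.

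Among genes that deliver initiator tRNA, Eif2s2 lay higher and Eif2a lower in knockout arrays without passing. Eif2s2, the beta subunit of eIF2, read 6.32, 6.57 and 6.46 on knockout arrays, against 6.18, 6.17 and 5.91 on wild type arrays. The groups did not overlap, at a difference of 0.37 (SE 0.12, adjusted p = 0.132). Eif2a codes for eIF2A, a separate tRNA carrier linked to alternative initiation and not the alpha subunit of eIF2. It read 8.28, 8.43 and 8.52 on knockout arrays, against 9.004, 8.73 and 8.78 on wild type arrays, with every knockout value below every wild type value (-0.43, SE 0.12, 95% interval -0.69 to -0.17, adjusted p = 0.0716). Eif2d, another carrier used in reinitiation, differed by 0.10 with overlapping groups.

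The gamma subunit of eIF2 is encoded on both sex chromosomes. The Y-linked gene Eif2s3y read 8.07, 8.40 and 8.16 on knockout arrays, against 8.52, 8.34 and 8.19 on wild type arrays, above background on all 6. The groups overlapped (-0.14, SE 0.13, adjusted p = 0.648). Both probe sets of the X-linked Eif2s3x also name Gm2223 and were left out of the members, with differences of -0.10 and 0.01. Among wild type arrays Eif2s3y was lowest on replicate 3, the array with high Xist, while the Y-linked genes Uty (6.71, 6.47 and 6.57) and Kdm5d (6.24, 5.80 and 5.996) were lowest on replicate 2. On wild type replicate 3 each of these Y-linked genes read within the range of the other arrays of both groups. The source of the high Xist was not tested.

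The exchange factor eIF2B, which reloads eIF2 with GTP, had 5 measured subunit genes, of which 0 passed. Eif2b2, the beta subunit, read 7.42, 7.06 and 7.44 on knockout arrays, against 7.72, 7.95 and 7.76 on wild type arrays. Each knockout value lay below each wild type value (-0.50, SE 0.13, 95% interval -0.80 to -0.20, adjusted p = 0.0642), the lowest difference of any member. Eif2b3, the gamma subunit, read 5.58, 5.17 and 5.32 in knockout and 5.82, 5.57 and 5.57 in wild type arrays. Its groups overlapped by 1 knockout value (-0.29, SE 0.13, adjusted p = 0.289). Eif2b5, the catalytic epsilon subunit, lay the other way, at 6.42, 6.24 and 6.38 in knockout and 5.90, 6.43 and 6.02 in wild type arrays (0.23, SE 0.15, adjusted p = 0.465). Eif2b4 and Eif2b1 differed by 0.06 and -0.03. The subunits of this complex therefore did not share a direction, and their median difference was -0.03.

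Promoters are shown for the 3 members with the smallest p, Eif1ax, Eif2b2 and Eif2a, and for Eif2ak2, the only eIF2 kinase gene that passed, to set a gene that differed beside genes of the machinery that did not pass. Each is the 250 bases before the annotated start, 5′ to 3′ on the gene's own strand, from RefSeq (GRCm38.p6). Capitals mark matches on either strand to the GC box GGGCGG, the ETS core CCGGAA, the E-box CACGTG or the interferon response element core (GAAA, any 2 bases, GAAA), where overlapping GC boxes were all counted.
Eif1ax, chrX:159371928-159372177, plus strand: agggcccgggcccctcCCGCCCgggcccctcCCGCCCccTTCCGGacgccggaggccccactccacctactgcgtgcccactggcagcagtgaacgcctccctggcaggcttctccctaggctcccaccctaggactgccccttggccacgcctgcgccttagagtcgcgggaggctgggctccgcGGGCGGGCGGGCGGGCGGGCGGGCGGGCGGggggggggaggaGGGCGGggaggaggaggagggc
Eif2b2, chr12:85219231-85219480, plus strand: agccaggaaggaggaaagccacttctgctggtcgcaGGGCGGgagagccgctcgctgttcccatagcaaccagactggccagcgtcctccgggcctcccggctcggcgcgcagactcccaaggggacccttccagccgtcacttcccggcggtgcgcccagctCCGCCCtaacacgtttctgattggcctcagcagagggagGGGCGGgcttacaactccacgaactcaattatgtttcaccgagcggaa
Eif2a, chr3:58525571-58525820, plus strand: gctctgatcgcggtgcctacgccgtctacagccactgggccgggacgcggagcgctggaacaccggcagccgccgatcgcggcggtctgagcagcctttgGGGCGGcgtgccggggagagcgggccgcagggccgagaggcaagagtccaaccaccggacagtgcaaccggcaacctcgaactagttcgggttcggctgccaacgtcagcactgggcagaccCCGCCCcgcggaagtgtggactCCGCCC
Eif2ak2, chr17:78882573-78882822, minus strand: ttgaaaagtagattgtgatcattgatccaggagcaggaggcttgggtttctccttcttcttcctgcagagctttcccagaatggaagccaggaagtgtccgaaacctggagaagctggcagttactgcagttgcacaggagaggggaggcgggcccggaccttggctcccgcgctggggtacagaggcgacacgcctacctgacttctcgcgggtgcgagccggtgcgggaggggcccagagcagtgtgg
The Eif1ax window held 10 GC boxes and 1 ETS core, and those of Eif2b2 and Eif2a held 3 GC boxes each. The Eif2ak2 window held none of these 4 motifs, which says only that these letters are not in these bases.

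Promoter windows were found for 36 of the 46 members, 48 windows in all since some genes have several starts. The GC box was in 32 of the 48 windows (66.7%), against 32.7% of all windows and 42.6% of those of protein-coding genes. The ETS core was in 16 (33.3%), against 12% of all and 15% of protein-coding windows. The E-box, to which MYC binds, was in 10 (20.8%), against 6.02% and 6.63%, and the interferon response element core in 1 (2.08%), against 2.98% and 2.96%. These windows were also richer in G and C, at 61.8%, against 53.2% over all windows and 55.5% over protein-coding ones, and windows of 1 gene can share bases. The counts describe letters, not sites in use.

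The eIF3 complex, which binds the small ribosomal subunit and keeps it ready for the message, had 12 measured subunit genes, of which 0 passed. Their differences ran from -0.25 to 0.98 with a median of 0.03. Eif3j1, a loosely attached subunit, had the largest difference of all members and the widest spread. It read 6.56, 6.96 and 6.71 on knockout arrays, against 6.01, 4.80 and 6.49 on wild type arrays. The knockout values were all higher (0.98, SE 0.35, 95% interval 0.19 to 1.77, adjusted p = 0.171), and 1 array set much of the size. Without wild type replicate 2 the difference was 0.50 (adjusted p = 0.159). Eif3j1 has a near-identical copy, Eif3j2, so its reads are uncertain, and the probe set naming both genes differed by 0.20.

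The subunit genes Eif3h and Eif3e were slightly lower in knockout arrays. Eif3h read 10.78, 10.59 and 10.73 on knockout arrays, against 10.91, 10.99 and 10.86 on wild type arrays. Eif3e read 10.27, 10.36 and 10.34 on knockout arrays, against 10.55, 10.48 and 10.43 on wild type arrays. In neither gene did the groups overlap, yet the differences of -0.22 (SE 0.10, adjusted p = 0.303) and -0.16 (SE 0.10, adjusted p = 0.434) did not pass. Eif3c, a core subunit, was the only other eIF3 gene without overlap, at 9.86 ± 0.03 in knockout and 9.74 ± 0.07 in wild type arrays (0.12, adjusted p = 0.577; named after its values were seen). The other 8 subunit genes overlapped, with sizes of 0.02 (Eif3f) to 0.25 (Eif3i).

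Part of the eIF3 spread came from wild type replicate 2, a pattern noticed in the values. This array was the highest of its group for 9 of 12 eIF3 genes, and over all genes it was the highest in 41.9%. Knockout replicate 2 was the lowest of its group for 8 of 12, and over all genes in 36.2%. Eif3i, a propeller-shaped subunit, read 9.05, 9.73 and 9.06 on wild type arrays, so replicate 2 was 0.68 above the mean of replicates 1 and 3. The same gap was 0.52 for Eif3l and 0.34 for Eif3k. Eif3j1 went the opposite way, at -1.45. Without that array the median eIF3 difference was 0.09 in place of 0.03, and that of Eif3i was -0.02 in place of -0.25. What sets this array apart was not tested.

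**Figure D3:**
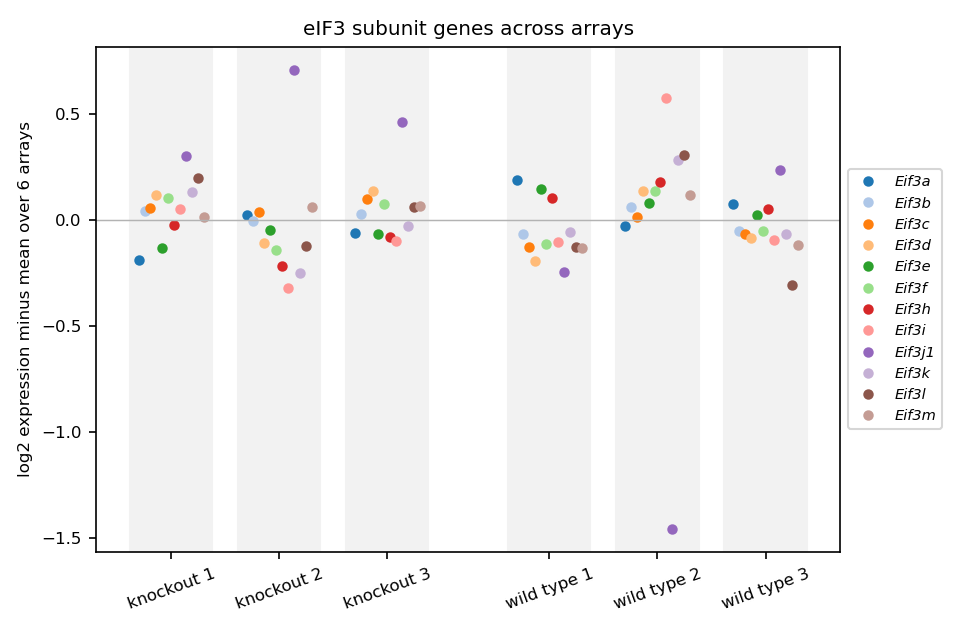
Log2 expression of the 12 eIF3 subunit genes on each array (x axis, Dot1l knockout left, wild type right), each gene minus its mean over the 6 arrays (y axis). On wild type 2 most genes sit high, Eif3i most of all, and Eif3j1 sits lowest.

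The eIF4 genes bind the cap, unwind the message and bridge it to the ribosome, and 0 of 11 passed. Their differences lay between -0.22 and 0.24. Eif4b, a cofactor of the helicase, read 10.24, 10.27 and 10.30 on knockout arrays, against 10.45, 10.48 and 10.52 on wild type arrays. The spread within each group was narrow and the groups did not overlap, but the difference of -0.21 (SE 0.09) had an adjusted p of 0.27. Eif4h, a related cofactor, lay the other way at 9.28, 9.23 and 9.29 in knockout and 8.86, 9.13 and 9.10 in wild type arrays. It also showed no overlap and did not pass (0.24, SE 0.11, adjusted p = 0.291).

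Cap-binding and scaffold genes stayed closer together. Eif4e, the cap-binding protein, averaged 8.65 ± 0.13 in knockout and 8.77 ± 0.05 in wild type arrays (-0.12, 95% interval -0.36 to 0.11). Its relative Eif4e3 read 6.10, 5.92 and 5.82 on knockout arrays, against 5.97, 6.10 and 6.16 on wild type arrays (-0.13, adjusted p = 0.609). Eif4g2, a scaffold used in cap-independent initiation, differed by 0.004, with a 95% interval of -0.21 to 0.22, and Eif4g3 by 0.11. Eif4e1b, known from oocytes, averaged 3.62 ± 0.18 in knockout and 3.63 ± 0.37 in wild type arrays, which is under the guide to background.

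The helicase gene Eif4a1 showed the widest spread of any member among knockout arrays, and was named after its values were seen. It read 12.54, 12.57 and 11.76 on knockout arrays, against 12.63, 12.31 and 12.59 on wild type arrays. Its difference was -0.22 as measured and 0.05 without knockout replicate 3, and its other probe set differed by 0.02. Eif4a2 has 3 probe sets, all with differences between -0.13 and -0.10. Eif4a3, a helicase of the exon junction complex, differed by 0.17, while its close copy Eif4a3l1, grouped with neither, read 4.65, 4.51 and 4.72 on knockout arrays, against 4.86, 5.10 and 5.04 on wild type arrays. Eif4a3l1 did not overlap (-0.38, SE 0.11, adjusted p = 0.0958), and a probe set naming both and a further copy differed by -0.13, so its own level is uncertain.

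**Figure D4:**
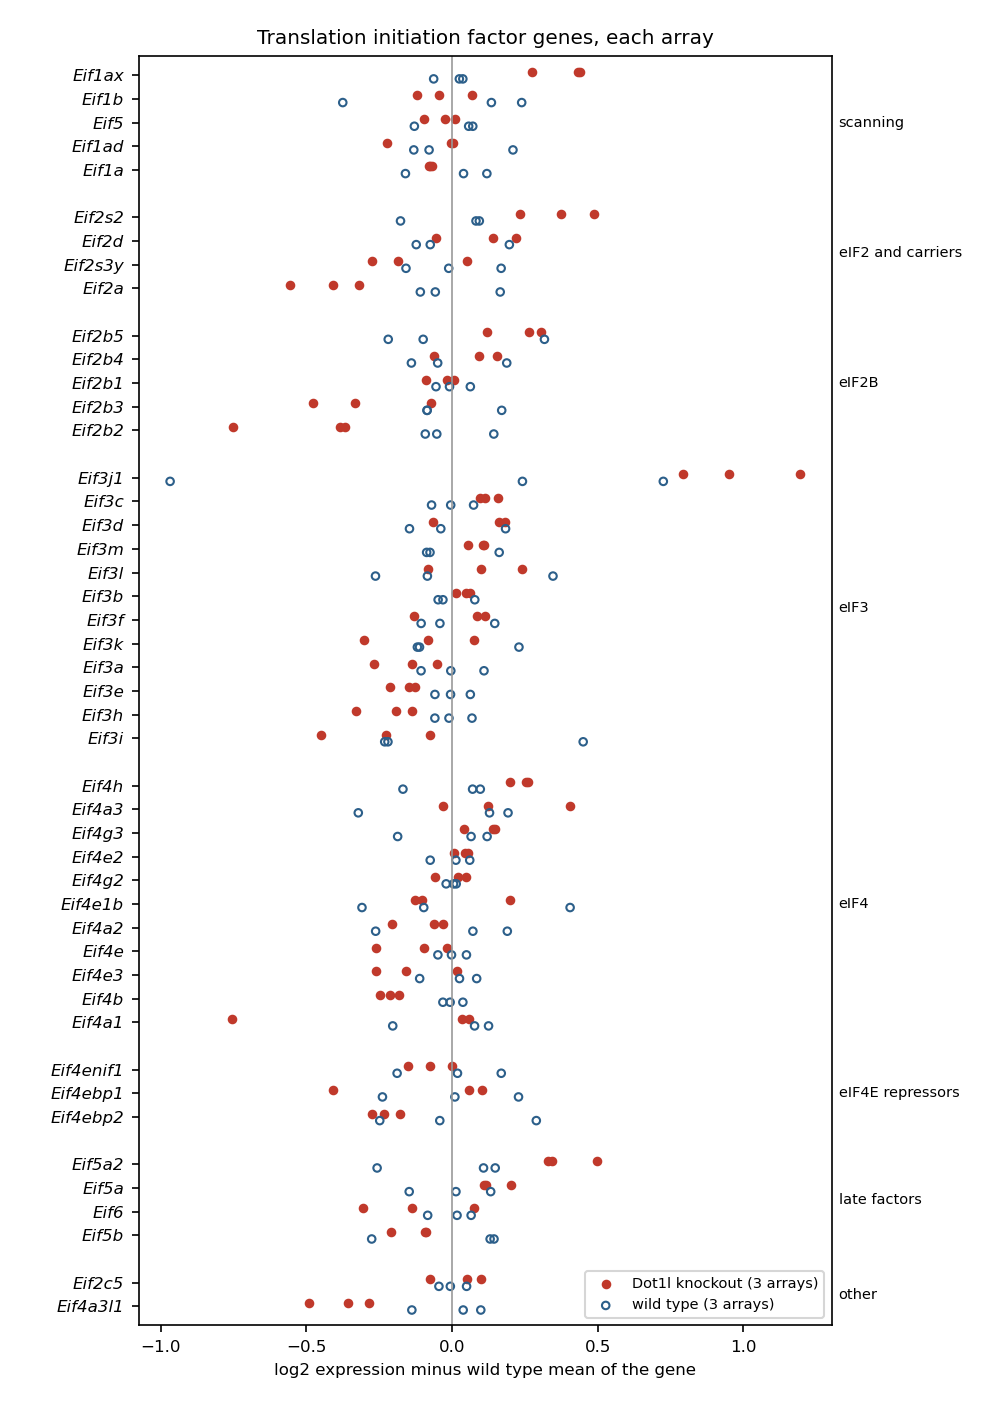
Log2 expression of the 46 initiation factor genes on each array minus the gene's wild type mean, with Dot1l knockout arrays as filled points above and wild type arrays as open points below in each row, 3 arrays per group. Points of both groups interleave for 34 genes and are apart for 12, and Eif3j1 and Eif4a1 each have 1 array far from the others of its group.

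Of 3 measured genes whose proteins bind and restrain eIF4E, 0 passed. Eif4ebp1 and Eif4ebp2 code for repressors that block the cap-binding protein until mTOR phosphorylates them. Eif4ebp1 read 5.39, 4.88 and 5.35 in knockout and 5.05, 5.30 and 5.52 in wild type arrays (-0.08, SE 0.17, adjusted p = 0.855). Eif4ebp2 read 8.59, 8.49 and 8.54 on knockout arrays, against 8.73, 9.06 and 8.52 on wild type arrays (-0.23, SE 0.14, adjusted p = 0.447). Both pairs of groups overlapped, and for Eif4ebp2 the difference was -0.35 to -0.08 when 1 array was left out. Eif4enif1, a transporter that moves eIF4E into the nucleus, read 7.09, 7.01 and 6.94 in knockout and 7.26, 6.90 and 7.11 in wild type arrays (-0.07, adjusted p = 0.806).

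Of the 4 genes for late steps, 0 passed. Eif5a2, a relative of the elongation and termination factor eIF5A, read 6.37, 6.53 and 6.36 on knockout arrays, against 6.14, 6.18 and 5.77 on wild type arrays. The knockout values were all higher (0.39, SE 0.13, adjusted p = 0.141). Eif5a itself read 7.87, 7.79 and 7.78 in knockout and 7.69, 7.81 and 7.53 in wild type arrays (0.14, adjusted p = 0.558). Eif6, which keeps the large subunit from joining too early, read 7.72, 7.34 and 7.51 in knockout and 7.56, 7.71 and 7.66 in wild type arrays (-0.12, adjusted p = 0.667), and Eif5b, the GTPase of subunit joining, differed by -0.13. The last member, Eif2c5, carries an old symbol of the Argonaute family and is no initiation factor. It read 3.77, 3.64 and 3.82 on knockout arrays, against 3.71, 3.77 and 3.67 on wild type arrays, both averages being under the background guide.

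Among the eIF2 alpha kinases, which are not members, 1 of 4 genes rose in knockout arrays and 0 fell. Over all genes 4.3% rose and 1.2% fell. Eif2ak2, the antiviral kinase PKR that is activated by double-stranded RNA and induced by interferon, read 8.01, 8.58 and 8.59 on knockout arrays, against 7.42, 6.74 and 6.91 on wild type arrays. The groups lay well apart, a 2.59-fold rise (log2 1.37, SE 0.20, adjusted p = 0.0046). Eif2ak1, the heme-regulated kinase, read 8.49, 8.50 and 8.59 on knockout arrays, against 8.34, 8.38 and 8.25 on wild type arrays, without overlap (0.20, adjusted p = 0.323). Eif2ak3, the kinase of endoplasmic reticulum stress, differed by -0.04, and Eif2ak4, which senses uncharged tRNA, by 0.003. With the mean of the unnamed probe sets as a covariate the Eif2ak2 difference was 0.11 (adjusted p = 0.928). Because that mean nearly matched the groups (r = 0.93), this fit cannot decide whether Eif2ak2 differed.

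The counts in the lists below stand beside 4.3% of all genes that rose and 1.2% that fell. Of the 11786 genes above the background guide, 927 rose and 246 fell. In the same arrays 16 of 18 measured interferon-stimulated genes rose and 0 fell. Their summed log2 level was 139.5 to 148.7 on knockout arrays and 116.7 to 119.5 on wild type arrays. Of 12 B cell markers, Cd22, Cd79a and Ms4a1 rose and Ighm fell, with sums of 60.7 to 62.6 in knockout and 57.0 to 59.0 in wild type arrays, and 4 markers (Cr2, Ebf1, Fcrla and Pax5) were below the background guide. Of 11 dendritic cell markers 3 rose (H2-Aa, Itgax and Bst2, which is also on the interferon list) and 5 were below the guide, with sums of 63.7 to 64.3 in knockout and 59.4 to 61.9 in wild type arrays. Without passing, H2-Ab1 (1.09) was higher and Cd209a (-0.37) and Ccr7 (-0.26) were lower, all without overlap. Of 8 NK cell markers 4 rose (Eomes, Klrk1, Nkg7 and Tyrobp), with sums of 48.8 to 49.7 in knockout and 43.6 to 44.6 in wild type arrays. Eomes (8.29) and Nkg7 (10.25) were already far above the guide in wild type arrays. Ncr1 (0.44, without overlap), Klrb1c (0.90), Klre1 (0.32) and Cd244a (0.05) were higher without passing. Of 12 monocyte, macrophage and neutrophil markers Itgam rose, Mpo fell and 7 were below the guide. The sums of those 12 lay the other way, at 42.8 to 43.8 in knockout and 44.1 to 45.7 in wild type arrays. Of 5 platelet and megakaryocyte markers Itgb3 rose (1.58, adjusted p = 0.000279) and 0 fell. Of 6 plasma cell, 8 stroma and endothelium and 2 erythroid markers 0 passed. Among these, Jchain (-0.86) and Pecam1 (-0.21) were lower and Irf4 (0.35) and Pdgfrb (0.54) higher without overlap. Of 20 immediate early genes 6 rose, with sums of 167.4 to 169.6 in knockout and 160.9 to 162.3 in wild type arrays. Their part in the Eif2ak2 rise was not tested, and in such bulk RNA more cells of a type and more RNA per cell cannot be told apart.

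Around the initiation factors, single regulators passed while most listed genes did not, and the counts stand beside 4.3% of all genes that rose and 1.2% that fell. Of 13 measured genes of the integrated stress response, 1 rose, with a median difference of 0.22. The difference was above 0 for 12 of the 13, against 10476 of all 22180 genes. All 13 were above the background guide, where 6553 of 11786 genes had a difference above 0. Without overlap 5 of the 13 were higher and 0 were lower. That held as higher for 13.7% of all genes and for 2648 of the 11786 above the guide. Atf3, 1 of the 13, is also on the immediate early list. The gene that passed was Ddit3, a transcription factor induced by stress, at 6.70, 6.90 and 7.02 on knockout arrays, against 6.10, 6.20 and 5.89 on wild type arrays. The groups did not overlap (0.81, SE 0.13, adjusted p = 0.0057). Trib3, a pseudokinase gene that Ddit3 is known to induce, read 4.74, 4.56 and 4.95 in knockout and 4.53, 3.996 and 4.32 in wild type arrays (0.47, adjusted p = 0.14). With the unnamed probe sets as a covariate Ddit3 differed by 0.81 (adjusted p = 0.378) and Trib3 by -0.07, in a fit whose covariate nearly matched the groups.

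Of 23 measured genes of mTOR and MNK signalling, 2 rose, 0 fell and 21 did not pass, with a median difference of 0.005. Ddit4, a stress-induced inhibitor of mTOR, read 5.11, 4.99 and 4.99 on knockout arrays, against 4.47, 4.69 and 4.505 on wild type arrays (0.47, SE 0.11, adjusted p = 0.0323). Deptor, a subunit that restrains the mTOR complexes, read 5.495, 5.47 and 5.36 in knockout and 5.02, 4.98 and 5.11 in wild type arrays (0.41, SE 0.10, adjusted p = 0.0467). The Deptor call ended when any 1 array was left out (adjusted p = 0.0841 to 0.168), with the mean of its probe sets (0.20, adjusted p = 0.424) and after another quantile normalization (0.20, adjusted p = 0.334). The Ddit4 call ended after that normalization too (0.30, adjusted p = 0.214), and median centring ended both calls (adjusted p = 0.0711 for Ddit4 and 0.0868 for Deptor).

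Of 16 measured poly(A)-binding proteins, helicases and reinitiation factors, 1 rose and 1 fell. Cyfip2, whose family can bind eIF4E, read 10.31, 10.39 and 10.38 in knockout and 9.98, 9.82 and 9.86 in wild type arrays (0.47, SE 0.10, adjusted p = 0.0236). Habp4, an RNA-binding protein found on idle ribosomes, read 6.48, 6.30 and 6.45 in knockout and 6.91, 7.02 and 6.77 in wild type arrays (-0.49, SE 0.11, adjusted p = 0.0323). Among 12 elongation and termination genes 1 rose and 0 fell. This was Eef2k, the kinase that slows elongation by phosphorylating eEF2, at 5.34, 5.32 and 5.67 on knockout arrays, against 4.74, 4.87 and 5.03 on wild type arrays (0.56, SE 0.13, adjusted p = 0.0366). Its call ended after the quantile normalization (0.36, adjusted p = 0.188) and median centring (0.51, adjusted p = 0.0527). Eef1e1, a component of the synthetase complex, read 8.86, 8.98 and 9.05 in knockout and 9.35, 9.37 and 9.16 in wild type arrays (-0.33, adjusted p = 0.134). When each of the 6 arrays was left out in turn, Eef2k and Deptor passed in 0 fits, Ddit4 only without wild type replicate 2, Habp4 only without wild type replicate 3, and Cyfip2 only without wild type replicate 1 or 2. Eif2ak2 (adjusted p up to 0.0272) and Ddit3 (adjusted p up to 0.0339) passed in all 6. With the unnamed probe sets as a covariate none of these regulators passed, at differences of 0.88 for Ddit4, 0.56 for Eef2k, 0.36 for Deptor, 0.23 for Cyfip2 and -0.14 for Habp4. That covariate nearly matched the groups and left 2 calls among all genes, so the lost calls decide nothing about these regulators. The part of the interferon-stimulated, immediate early, B, dendritic and NK cell genes in the regulators' differences was not tested.

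**Figure D5:**
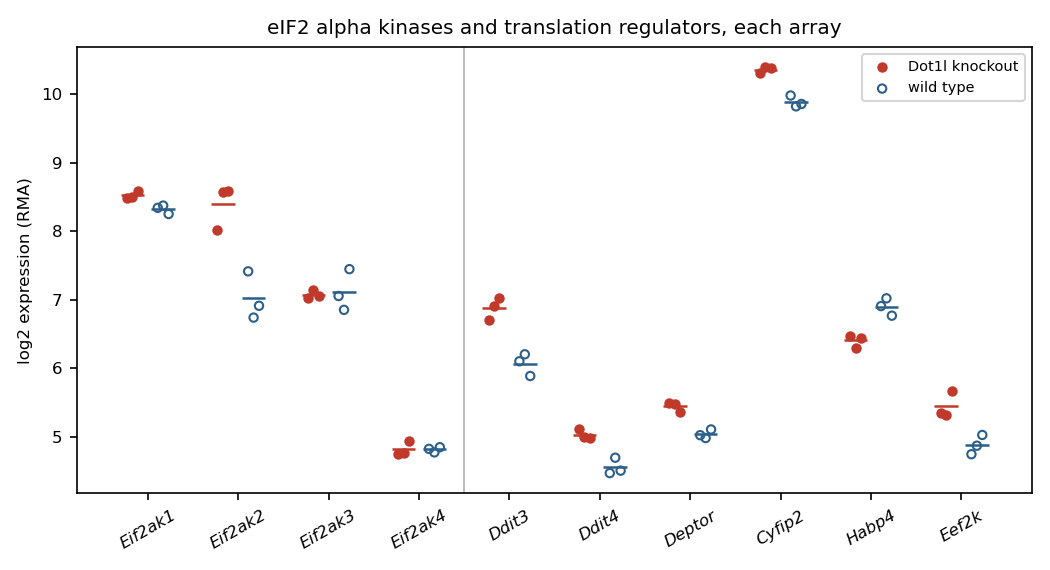
Log2 expression of the 4 eIF2 alpha kinase genes (left of the line) and of 6 regulators of translation that passed (right of the line) on each array, with Dot1l knockout left of wild type for each gene and a bar at the mean of 3 arrays. Eif2ak2 is the only kinase gene whose groups are far apart, and levels of different genes cannot be compared because each has its own probes.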

How the data were processed

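The deposited table holds log2 expression values of 41345 probe sets, which the authors obtained with RMA and R 3.1.1, as listed without a role per the submitters' processing notes. No source used here gives the settings, the build or whether both groups were processed together. RMA as commonly run understates changes of dim genes, and for arrays their number, 6, limits the precision. Of the probe sets, 23521 named 1 gene symbol, 1814 several and 16010 none in the platform annotation, and only the first were tested. Where a gene had several probe sets (1082 genes), the one with the highest mean over the 6 arrays stood for it. For knockout minus wild type, lmFit and eBayes of limma 3.58.1 were run under R 4.3.3 without covariates, with Benjamini-Hochberg adjustment over 22180 genes. The fit was tested on simulated data. The members and lists were chosen with earlier results of these data known. Values in every array were given, by rule, for members that passed, the 3 with the smallest p in each role and the eIF4E repressors. They were also given for Eif1ax, Eif1a and Eif2s3y, while Eif2s3x, named in the same rule, was given by its differences alone. In each list of eIF2 kinases and translation regulators they were given for genes that passed and the 2 with the smallest p. The rule did not cover the marker, interferon, immediate early or other sex-linked genes. Symbols not measured by a probe set of 1 gene were not among the members. Of these, Eif1, Eif2s1, Eif3g and Eif4g1 were not analysed here. Eif2s3x, Eif3j2 and Eif4ebp3 were read only through probe sets that also name another gene. The alternatives were 14 fits fixed with the design and 2 added after seeing the data. Replicate numbers were not used to pair the arrays, and the labels do not say whether they do.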

Additional observations from a re-analysis of the deposited data

Results flagged for a closer look

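The 5333 unnamed probe sets numbered below the first named one stood for no gene and entered the fits only through their mean, as an added covariate. They read higher on every knockout array than on any wild type array, at a median log2 difference of 0.43, and their array means were 4.19 to 4.39 in knockout and 3.65 to 3.91 in wild type arrays. What these probe sets measure is not known from the sources at hand. By array these means were 4.19, 4.39 and 4.33 in knockout and 3.91, 3.65 and 3.85 in wild type, where the mean of all 46 initiation factor genes was 7.92, 7.85 and 7.89 in knockout and 7.88, 7.92 and 7.90 in wild type. Within each group the array with the higher block mean thus had the lower mean of initiation factor genes.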

How the results depend on the processing

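No initiation factor gene passed in the fits with the replicate number as a block, without any 1 array, above the 25th percentile of level, with array weights or with the mean of probe sets. Other settings changed this. Trend and robust fitting gave 1 higher (Eif1ax, adjusted p = 0.0144) and 2 lower (Eif2a, 0.0199, and Eif2b2, 0.0267), as did genes above the background guide, an added setting (1 and 2). Genes above the 50th percentile, which adjusts over 11090 genes, gave 1 higher and 3 lower (Eif4a3l1 as well, 0.0484). Median centring called 1 lower (Eif2a, -0.48, adjusted p = 0.0472), and another quantile normalization called 1 lower (Eif4a3l1, -0.56, 0.0374). The median member difference was -0.085 and -0.11 in these rescalings and 0.15 with the unnamed block as an added covariate, as the median over all genes moved to -0.06, -0.06 and 0.07. Over all genes 615 to 1307 passed without 1 array, 745, 696 and 615 of them without knockout replicate 1, 2 and 3 and 780 without wild type replicate 3, 912 with the replicate block (smallest member adjusted p = 0.133) and 2 with the covariate, whose array values followed the groups (median SE of members 0.28 in place of 0.12). With it the difference changed sign for Eif2b2 (0.0728), Eif3j1 (-1.20), Eif3h (0.0647), Eif4e3 (0.16), Eif4ebp2 (0.39), Eif4ebp1 (0.45), Eif1a (0.0697), Eif1ad (0.41), Eif6 (0.37) and Trib3 (-0.0735). Eif2c5 was -0.0248 after median centring and -0.0197 after quantile normalization. Leaving out 1 array gave -0.20 to 0.0814 for Eif4ebp1, -0.0116 to 0.0753 for Eif2c5, -0.14 to 0.0314 for Eif1ad and -0.17 to 0.0101 for Eif4enif1. The cause of these changes was not tested. Same-numbered deviations correlated at -0.07, -0.16 and -0.07, which gave no sign of pairing, though 3 arrays per group cannot exclude it. The replicate block ended the calls of Ddit4 (adjusted p = 0.0883), Deptor (0.133), Cyfip2 (0.0801) and Habp4 (0.0871).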

Other observations

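Of the 46 initiation factor genes, 33 kept the sign of their difference in all 6 fits that left out 1 array, and 13 did not. Those that kept it include Eif1ax (0.35 to 0.44), Eif2b2 (-0.57 to -0.38), Eif2a (-0.48 to -0.35), Eif2s2 (0.28 to 0.43) and Eif5a2 (0.26 to 0.47), while Eif4a1 ran from -0.36 to 0.05.

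The 8 probe sets that name an initiation factor gene together with another gene, and the 4 further probe sets of members, gave no call among all probe sets (limma, 0 passed in each set, with 0.406 and 0.516 as the smallest adjusted p). The probe set of Eif4ebp3 and Ankhd1 averaged 4.61 ± 0.17 in knockout and 4.43 ± 0.07 in wild type arrays (0.19), and that of Rfc4 and Eif4a2 averaged 6.57 ± 0.06 in knockout and 6.76 ± 0.12 in wild type arrays (-0.19). Other probe sets that name Eif4a2 lay the other way, at 0.17 with Snora81 and 0.13 with Snord2.

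The median SD of a member within a group was 0.10 among knockout and 0.15 among wild type arrays, and over all genes it was 0.12 among knockout and 0.15 among wild type arrays. An SD over 0.25 was seen for 2 members among knockout and 8 among wild type arrays. Uty, another Y-linked gene, differed by 0.28 (adjusted p = 0.195).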
